A study of Rattus norvegicus with 12 samples.

Results

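Ribosome biogenesis factors are the proteins that transcribe ribosomal RNA and fold, cut and modify it into ribosomal subunits without being part of the finished ribosome. The group described here holds 50 genes in 5 roles, named by symbol. Each was read from the probe set with the highest mean over all arrays among the detected probe sets that the platform annotation gives to that symbol alone. Of the 50 genes, 42 had such a probe set, among 11053 genes and 18957 detected probe sets in all. No detected probe set was listed for Utp6, Utp20, Wdr36, Rrp12, Pes1, Nop2 and Rrp1b, and the probe set of Rrn3 is shared with another gene, so those 8 genes are not analysed here.

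Skeletal muscle was taken from the hind legs of newborn male rats of the Wistar strain. In the first group the dams ate a low protein diet and had taurine, an amino sulphonic acid abundant in muscle, in their drinking water at 2% w/v. A further group of dams ate the low protein diet alone, and the control dams ate the control diet. Below, "with taurine" and "taurine arrays" stand for the low protein plus taurine group. Its differences from control join diet and taurine, since no group had taurine on the control diet. Diets ran from day 1 of gestation. Each group had 4 arrays, and each array held RNA pooled from 3 male newborns of 1 dam, so the dam was the replicate. Values are log2 expression per probe set, normalised by the authors with RMA, and differences are given as log2 fold changes, where 0.26 to 0.29 stands for a linear ratio of about 1.2. In bulk tissue, fewer cells of a type and less RNA per cell cannot be told apart.

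Growing cells spend much of their transcription on ribosomes. RNA polymerase I copies the ribosomal genes inside the nucleolus, small nucleolar ribonucleoproteins (snoRNPs) mark bases of the new transcript for methylation or pseudouridine formation, and large assemblies of processing factors then release the small and the large subunit precursors. In skeletal muscle, ribosome content is a known determinant of protein synthesis and of fibre growth, and many of these factors are known targets of the transcription factor Myc.

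The arrays carried the defining transcripts of skeletal muscle, with 12 of 12 measured markers above the array median and a mean level of 11.64 to 11.88 with taurine, 11.58 to 11.76 with low protein and 11.49 to 11.72 in the controls. Control 3 and control 4 stood apart: the mean of 11 hepatocyte markers was 11.26 and 12.13 there, against 6.71 in control 1 and 7.07 in control 2. The same mean was 6.91 to 7.62 with taurine and 6.96 to 8.48 with low protein, the highest of these in low protein 2. The mean of 8 erythroid markers was also highest in control 3 and control 4, at 9.05 and 9.70, against 8.38 and 8.60 in control 1 and control 2. It was 8.42 to 8.91 with taurine and 8.33 to 8.48 with low protein. Of these 8 markers, 3 were called lower with low protein and 1 with taurine, and their part in the members' values was not tested. Calls against control that were lost without control 3 and control 4 are marked as such beside each member. The median of all probe sets was 7.71 to 7.74 on the taurine arrays, 7.73 to 7.75 on the low protein arrays and 7.66 to 7.67 on the control arrays. The main fit leaves this shift in the differences from the controls, and it was not the same at all levels. With low protein the median difference from control was -0.129 for probe sets at 5.93 to 6.35, 0.165 at 8.49 to 9.03 and 0.075 at 9.85 or above. No array batch or scan date is given in the sources used here, and the number of arrays limits the precision.

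Promoters are shown for the members on which the results turn. They span 300 bases, from 250 before to 50 after the annotated start, read 5' to 3' on the strand of the gene in the RefSeq annotation of the rat genome GRCr8. Wdr75 (chr9:55394982-55395281, plus strand), Polr1a (chr4:105508055-105508354, plus strand) and Nolc1 (chr1:254870109-254870408, plus strand) are the called members with the smallest p for low protein against control that have an entry. Utp18 (chr10:79335708-79336007, minus strand), which had the largest rise, and Dkc1 (chrX:157751401-157751700, plus strand), which was not called, were added after their values had been seen. Capitals mark 2 motifs searched on both strands, which do not overlap each other: CACGTG, the E-box form bound by Myc and related factors, and CCGGAAG (reverse complement CTTCCGG), a core bound by the ETS family.
Wdr75: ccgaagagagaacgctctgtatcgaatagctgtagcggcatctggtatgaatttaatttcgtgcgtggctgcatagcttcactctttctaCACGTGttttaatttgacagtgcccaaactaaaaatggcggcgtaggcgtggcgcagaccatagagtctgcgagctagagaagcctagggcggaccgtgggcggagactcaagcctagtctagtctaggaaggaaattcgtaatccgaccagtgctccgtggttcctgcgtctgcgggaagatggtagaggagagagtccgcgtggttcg
Polr1a: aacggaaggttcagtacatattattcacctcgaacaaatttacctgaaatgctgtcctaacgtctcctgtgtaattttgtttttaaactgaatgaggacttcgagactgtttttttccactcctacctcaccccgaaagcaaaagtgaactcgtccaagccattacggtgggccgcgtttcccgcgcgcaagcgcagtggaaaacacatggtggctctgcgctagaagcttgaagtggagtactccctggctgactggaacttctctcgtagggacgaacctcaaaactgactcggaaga
Nolc1: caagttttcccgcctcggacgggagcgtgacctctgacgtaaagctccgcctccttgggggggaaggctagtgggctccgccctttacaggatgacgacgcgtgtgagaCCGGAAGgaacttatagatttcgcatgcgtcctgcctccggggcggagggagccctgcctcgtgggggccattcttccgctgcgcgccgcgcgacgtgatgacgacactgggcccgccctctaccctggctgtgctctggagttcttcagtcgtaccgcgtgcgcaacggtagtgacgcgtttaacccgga
Utp18: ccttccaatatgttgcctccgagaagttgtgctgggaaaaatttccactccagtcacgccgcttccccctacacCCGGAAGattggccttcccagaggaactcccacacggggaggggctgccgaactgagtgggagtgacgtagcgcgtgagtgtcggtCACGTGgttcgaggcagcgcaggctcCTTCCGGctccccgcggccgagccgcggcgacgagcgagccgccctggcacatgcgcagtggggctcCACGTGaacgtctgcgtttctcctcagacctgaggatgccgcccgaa
Dkc1: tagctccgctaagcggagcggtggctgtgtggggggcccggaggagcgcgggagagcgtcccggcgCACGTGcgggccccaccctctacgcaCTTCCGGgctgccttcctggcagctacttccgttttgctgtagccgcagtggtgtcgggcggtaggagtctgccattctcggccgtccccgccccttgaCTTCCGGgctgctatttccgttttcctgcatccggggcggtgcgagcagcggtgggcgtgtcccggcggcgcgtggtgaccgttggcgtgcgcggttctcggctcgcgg
The Wdr75 window holds 1 CACGTG, at position -160 from the start, and the Polr1a window holds neither motif. Nolc1 carries the ETS core at -141. Utp18, with the largest rise, and Dkc1, with no call, both hold CACGTG and 2 copies of the ETS core.

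RefSeq promoters were found for 39 of the 42 members (not for Bop1, Gnl2 and Wdr43), with a median GC content of 58.0%. CACGTG was present in 10 of the 39 windows (25.6%), against 6.65% of all 27457 rat promoters of the same length and 9.2% of the 9117 promoters of genes with a detected probe set. CCGGAAG was present in 18 of the 39 (46.2%), against 9.22% of all promoters and 16.2% of those of detected genes. Neither motif separated the members by response: of the 17 with a promoter that were called higher with low protein, 5 had CACGTG and 8 had CCGGAAG, and of the 22 others, 5 and 10 had them. A match is a description of letters and no match says only that these letters are not in this window.

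Low protein against control asked how the maternal diet moved these transcripts. Of the 42 members, 19 rose (45.2%) and 0 fell at an adjusted p under 0.05 in limma's moderated test with Benjamini-Hochberg adjustment over all probe sets, and 27 had an unadjusted p under 0.05. Over all detected probe sets 21.8% were called higher and 11.9% lower. Among the 3553 probe sets with 1 symbol between the lower and upper quartiles of the members' levels (7.7 to 8.86), 40.1% were called higher and 1.01% lower. These are the genes at like levels in what follows, and the members' share was near theirs. Members outside that range, among them Polr1a, Rrp9 and Ncl, are set beside the same genes and are not matched in level. In 10 level bins of near equal size over all probe sets, 147 were called higher at 6.67 to 7.01, 715 at 8.49 to 9.03 and 354 at 9.85 or above. The median difference of the members was 0.18, against 0.17 for the genes at like levels and 0.07 for all probe sets, and 38 of 42 members lay above 0. The called members rose by 0.18 to 0.40. All low protein arrays lay above all control arrays for 22 of the 42 members (52.4%), 17 of them called, against 22.2% of all probe sets and 39.2% of genes at like levels. Rises were spread unevenly over the roles: 12 of 17 small subunit factors were called, against 2 of 4 RNA polymerase I genes, 3 of 8 snoRNP proteins, 2 of 10 large subunit factors and 0 of 3 abundant nucleolar proteins. That difference between roles was not tested. Endothelial markers moved in the same direction, with 6 of 9 called higher and a mean level of 8.87 to 9.03 with taurine, 9.01 to 9.05 with low protein and 8.73 to 8.91 in the controls, and their part in the members' rise was not tested.

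**Figure D1:**
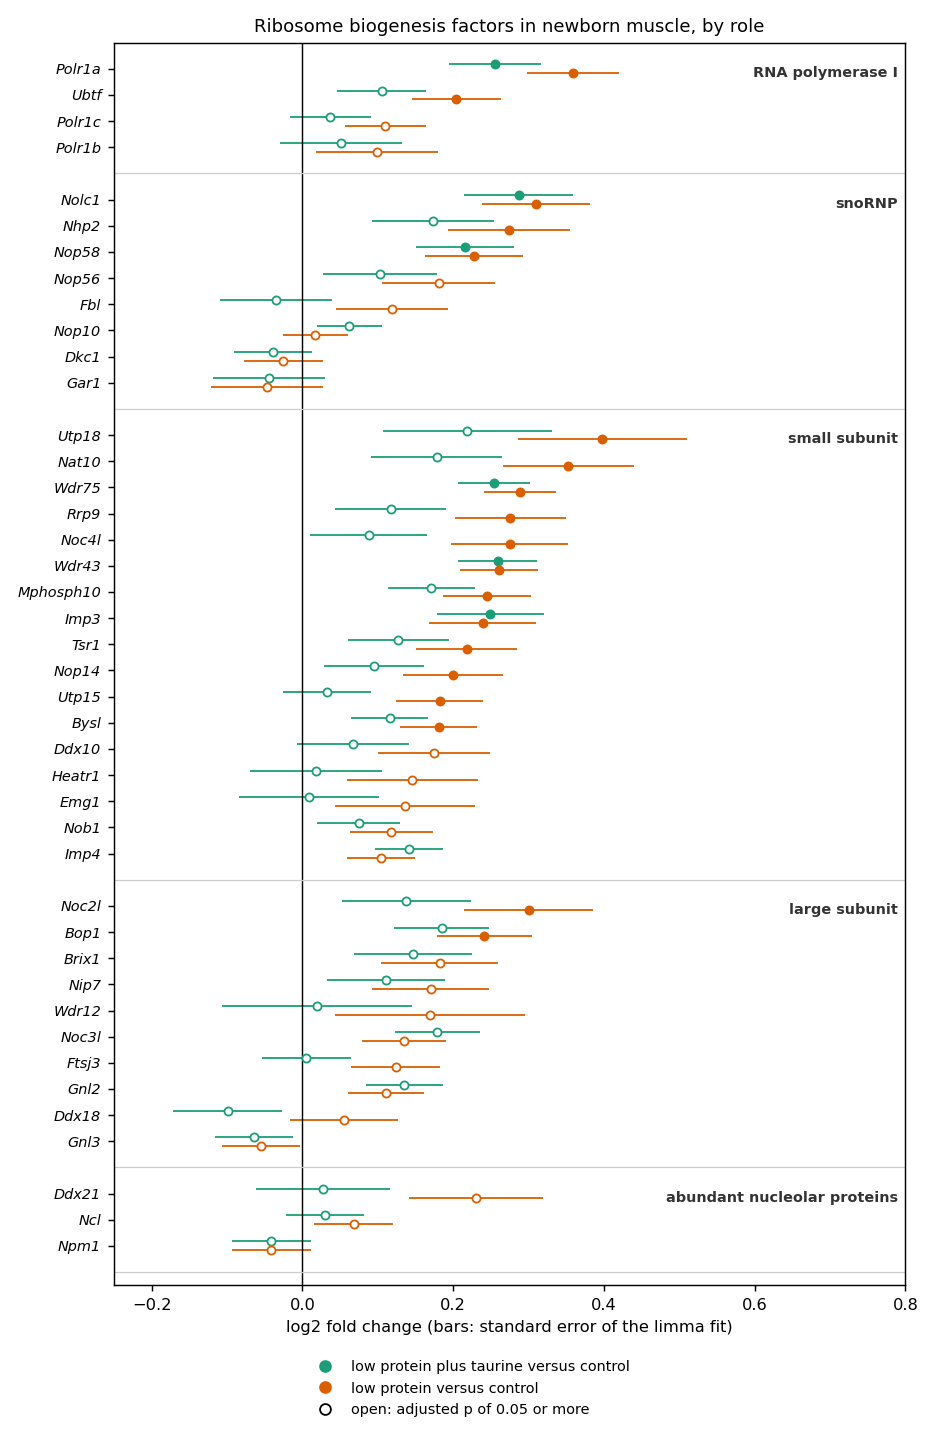
Log2 fold changes against control (horizontal axis) of the 42 members, in 5 blocks by role and sorted by the low protein value within each. Green points stand for low protein plus taurine and orange points for low protein, bars are the standard error of the limma fit, and filled points have an adjusted p under 0.05. All filled points lie right of 0, most of them in the small subunit block, and Polr1a, Nolc1, Nop58, Wdr75, Wdr43 and Imp3 are filled in both colours.

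RNA polymerase I was represented by 3 subunits and by Ubtf, the factor that coats the ribosomal genes. Polr1a, the largest and catalytic subunit, had log2 levels of 7.47, 7.42, 7.58 and 7.32 with taurine, 7.52, 7.61, 7.52 and 7.56 with low protein, and 7.25, 7.25, 7.10 and 7.17 in the controls. Every array of both low protein groups lay above every control array. The rise was 0.36 ± 0.06 with low protein (SE, n = 4 arrays per group, limma adjusted p = 0.00467) and 0.26 ± 0.06 with taurine (limma adjusted p = 0.0225). The call with taurine was lost without taurine 1 or without control 3 (limma adjusted p of 0.0597 and 0.0645), as well as without control 3 and control 4 together (0.20, limma adjusted p = 0.126). In the authors' deposited table of 895 probe sets, the ratio to control of Polr1a was 1.28 with low protein and 1.19 with taurine. Ubtf stood at 8.82, 8.81, 8.97 and 8.94 with taurine, at 8.88, 9.03, 9.02 and 8.99 with low protein, and at 8.77, 8.69, 8.88 and 8.77 in the controls. Its lowest low protein array and its highest control array were equal to 2 decimals, and the rise was 0.20 ± 0.06 (SE, n = 4 each, limma adjusted p = 0.0218). The call was lost without low protein 2, without low protein 3 or without control 2 (limma adjusted p of 0.0565, 0.0578 and 0.0513). Polr1b, the second largest subunit, ranged from 7.38 to 7.68 with taurine, from 7.45 to 7.64 with low protein and from 7.31 to 7.56 in the controls. These ranges overlapped, and the difference of low protein from control was 0.10 ± 0.08 (SE, n = 4 each, limma adjusted p = 0.345). For Polr1c, a subunit shared with RNA polymerase III, it was 0.11 ± 0.05 (SE, n = 4 each, limma adjusted p = 0.12).

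The snoRNP group holds the 2 kinds of modification particle and a chaperone. Nolc1, the nucleolar phosphoprotein that escorts both kinds, had log2 levels of 8.36, 8.14, 8.45 and 8.45 with taurine, 8.36, 8.30, 8.49 and 8.34 with low protein, and 8.02, 8.03, 8.08 and 8.13 in the controls. No array of either low protein group fell into the control range, although taurine 2 lay only 0.01 above it. The difference from control was 0.31 ± 0.07 with low protein (SE, n = 4 each, limma adjusted p = 0.0102) and 0.29 ± 0.07 with taurine (limma adjusted p = 0.0267). Leaving out taurine 1, 3 or 4 or control 1 or 3 ended the call with taurine (limma adjusted p of 0.056 to 0.0687), and so did leaving out control 3 and control 4 together (0.33, limma adjusted p = 0.0646). Of the box C/D proteins, which serve RNA methylation, the core scaffold Nop58 had 8.93, 8.85, 8.94 and 8.99 with taurine, 8.79, 9.01, 8.90 and 9.06 with low protein, and 8.74, 8.79, 8.71 and 8.61 in the controls. Here too the lowest low protein array equalled the highest control array to 2 decimals. The rise was 0.23 ± 0.07 with low protein (SE, n = 4 each, limma adjusted p = 0.0212) and 0.22 ± 0.07 with taurine (limma adjusted p = 0.0467). The call with low protein was lost without low protein 2 or 4 (0.0576 and 0.0548), and the call with taurine when any 1 of 8 arrays was left out (0.0531 to 0.104). Without control 3 and control 4 Nop58 was called neither with low protein (limma adjusted p = 0.127) nor with taurine (0.223).

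Fibrillarin (Fbl), the methyltransferase of the same particle, ranged from 8.53 to 8.78 with taurine, from 8.71 to 8.89 with low protein and from 8.58 to 8.85 in the controls. The 3 groups overlapped, with differences from control of 0.12 ± 0.07 for low protein and -0.04 ± 0.07 for taurine (SE, n = 4 each, limma adjusted p of 0.212 and 0.751). Nop56, the partner of Nop58, differed by 0.18 ± 0.08 with low protein (SE, n = 4 each, limma adjusted p = 0.0776) and overlapped with control. Among the box H/ACA proteins, which serve pseudouridine formation, Nhp2 had 8.93, 8.71, 8.88 and 9.02 with taurine, 8.92, 8.96, 9.04 and 9.02 with low protein, and 8.53, 8.71, 8.70 and 8.90 in the controls. The low protein arrays all lay above the control arrays, and Nhp2 rose by 0.27 ± 0.08 (SE, n = 4 each, limma adjusted p = 0.0241). This call was lost without low protein 3 or 4 or control 1 or 3 (limma adjusted p of 0.05 to 0.0636). The catalytic subunit Dkc1 ranged from 8.0 to 8.15 with taurine, from 8.05 to 8.16 with low protein and from 8.06 to 8.21 in the controls. Its difference of low protein from control was -0.02 (95% interval -0.14 to 0.09, limma adjusted p = 0.727), and Nop10 and Gar1 of the same particle were also not called.

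Most called members belong to the small subunit processome, the assembly around the U3 snoRNP that cuts the small subunit precursor out of the transcript. Wdr75, of its subcomplex that binds the nascent transcript first, had 8.63, 8.57, 8.61 and 8.67 with taurine, 8.60, 8.68, 8.61 and 8.74 with low protein, and 8.34, 8.35, 8.41 and 8.37 in the controls. All 8 arrays of the low protein groups were above all 4 control arrays, and the rise was 0.29 ± 0.05 with low protein (SE, n = 4 each, limma adjusted p = 0.00461) and 0.25 ± 0.05 with taurine (limma adjusted p = 0.0128). The authors' deposited table gives Wdr75 ratios to control of 1.22 with low protein and 1.19 with taurine, and it marks neither Wdr75 nor Polr1a as fully or partially rescued by taurine. Wdr43, of the same subcomplex, had 8.23, 8.33, 8.19 and 8.19 with taurine, 8.17, 8.21, 8.25 and 8.33 with low protein, and 7.97, 8.02, 7.99 and 7.93 in the controls. Again both low protein groups lay above the controls while overlapping with each other, and the difference was 0.26 ± 0.05 in both comparisons with control (SE, n = 4 each, limma adjusted p of 0.00668 with low protein and 0.0159 with taurine). Both genes kept these calls whichever single array was left out, but without control 3 and control 4 together the taurine call of Wdr43 was lost (0.24, limma adjusted p = 0.0637).

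Utp18, a WD-repeat protein of the processome, had 7.76, 7.43, 7.87 and 7.59 with taurine, 7.59, 7.83, 7.88 and 8.07 with low protein, and 7.30, 7.37, 7.52 and 7.58 in the controls. It varied widely within each group, with SDs of 0.19, 0.20 and 0.13, and the lowest low protein array exceeded the highest control array by 0.01. With low protein the rise was 0.40 ± 0.11 (SE, n = 4 each, limma adjusted p = 0.0194), the largest among the members. Nat10, the enzyme that acetylates cytidines of the small subunit RNA, had 7.81, 7.50, 7.93 and 7.80 with taurine, 7.81, 7.97, 7.86 and 8.09 with low protein, and 7.61, 7.51, 7.57 and 7.62 in the controls. All low protein arrays lay above the controls, while taurine 2 lay below all of them. Nat10 rose by 0.35 ± 0.09 with low protein (SE, n = 4 each, limma adjusted p = 0.0123). With taurine, Utp18 differed from control by 0.22 (limma adjusted p = 0.177) and Nat10 by 0.18 (limma adjusted p = 0.162).

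Rrp9, a protein of the U3 snoRNP, had 6.77, 6.66, 6.88 and 6.88 with taurine, 6.97, 6.92, 7.04 and 6.90 with low protein, and 6.62, 6.86, 6.54 and 6.70 in the controls. The low protein arrays lay above those of both other groups, with a rise over control of 0.28 ± 0.07 (SE, n = 4 each, limma adjusted p = 0.0168) that was not called without control 3 and control 4 (0.22, limma adjusted p = 0.0951). Noc4l, a nucleolar complex protein, had 7.82, 7.74, 7.98 and 7.86 with taurine, 7.97, 7.93, 8.15 and 8.10 with low protein, and 7.57, 7.81, 7.79 and 7.87 in the controls. Its rise with low protein was 0.28 ± 0.08 (SE, n = 4 each, limma adjusted p = 0.0204), and the call was lost without low protein 3 or without control 1 (limma adjusted p of 0.0608 and 0.0514). Imp3, which in yeast joins U3 to its target in a complex with the counterparts of Imp4 and Mphosph10, had 9.42, 9.23, 9.13 and 9.12 with taurine, 9.22, 9.23, 9.22 and 9.19 with low protein, and 9.01, 8.87, 8.94 and 9.09 in the controls. Both low protein groups lay above the controls and overlapped with each other, and Imp3 rose by 0.24 ± 0.07 with low protein and by 0.25 ± 0.07 with taurine (SE, n = 4 each, limma adjusted p of 0.0238 and 0.0386). Its complex partners differed from control with low protein by 0.24 for Mphosph10, which was called (limma adjusted p = 0.0108), and by 0.10 for Imp4, which was not (limma adjusted p = 0.0869).

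Utp15, a further early-binding processome protein, had 6.81, 6.81, 6.90 and 6.72 with taurine, 7.0, 6.91, 7.07 and 6.85 with low protein, and 6.79, 6.79, 6.78 and 6.75 in the controls. Low protein arrays were higher than all controls, whereas taurine arrays straddled them, and the rise with low protein was 0.18 ± 0.06 (SE, n = 4 each, limma adjusted p = 0.0318). Leaving out low protein 1 or 3 or control 1, 3 or 4 ended this call, with limma adjusted p of 0.0544 to 0.0924. The call for Imp3 with low protein was likewise lost without low protein 2, low protein 3, control 2 or control 3 (0.053 to 0.0595), and its call with taurine when any 1 of taurine 1 or 2, low protein 3 or control 1, 2 or 3 was left out (0.052 to 0.0936). Without control 3 and control 4 the low protein call of Utp15 (0.17, limma adjusted p = 0.126) and the taurine call of Imp3 (0.29, limma adjusted p = 0.0771) were lost. Nop14, Bysl and Tsr1, which act from the processome to late cytoplasmic maturation of the subunit, rose by 0.20, 0.18 and 0.22 with low protein (limma adjusted p of 0.0353, 0.0197 and 0.0278). Of these, Nop14 (limma adjusted p = 0.102) and Bysl (0.0629) were not called without control 3 and control 4. Heatr1, Emg1, Ddx10 and Nob1, the last an endonuclease of the final cut, differed by 0.12 to 0.17 and did not pass.

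Of the 10 large subunit factors 2 were called. Bop1, a scaffold of the complex it forms with Wdr12 and Pes1, had 7.67, 7.63, 7.83 and 7.84 with taurine, 7.82, 7.75, 7.85 and 7.77 with low protein, and 7.52, 7.47, 7.57 and 7.66 in the controls. The low protein arrays lay above the controls and the taurine array with the lowest value lay within their range. Bop1 rose by 0.24 ± 0.06 with low protein (SE, n = 4 each, limma adjusted p = 0.0148), and with taurine the difference was 0.19 ± 0.06 (limma adjusted p = 0.064). Noc2l, whose yeast counterpart accompanies the precursor out of the nucleolus, rose by 0.30 ± 0.09 with low protein (SE, n = 4 each, limma adjusted p = 0.0207), though low protein 1 at 7.56 was just below control 4 at 7.57. Noc3l differed by 0.14 with low protein and by 0.18 with taurine (limma adjusted p of 0.0779 and 0.0524). The nucleolar GTPase Gnl3, also called nucleostemin, stood at 8.35 to 8.46 with taurine, 8.36 to 8.44 with low protein and 8.38 to 8.53 in the controls, a difference of -0.06 with low protein (limma adjusted p = 0.415). Nip7 was measured by 2 probe sets that disagreed, at 0.17 and -0.13 with low protein, and neither was called.

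The abundant nucleolar proteins did not pass in either comparison with control. Nucleolin (Ncl), a histone chaperone and RNA-binding protein of the nucleolus, had 11.40, 11.39, 11.52 and 11.42 with taurine, 11.38, 11.50, 11.52 and 11.48 with low protein, and 11.41, 11.33, 11.44 and 11.43 in the controls. Groups overlapped, and the difference with low protein was 0.07 (95% interval -0.04 to 0.18, limma adjusted p = 0.304). Nucleophosmin (Npm1), a ribosome export factor, had 10.55, 10.48, 10.53 and 10.58 with taurine, 10.50, 10.60, 10.49 and 10.55 with low protein, and 10.64, 10.63, 10.57 and 10.47 in the controls. It differed from control by -0.04 in both comparisons (95% interval -0.15 to 0.07 in each, limma adjusted p of 0.55 with low protein and 0.592 with taurine), and its other 3 probe sets were not called either. The helicase Ddx21, which works at the ribosomal genes and on snoRNAs, had 8.88, 8.71, 9.08 and 9.0 with taurine, 9.05, 9.11, 9.06 and 9.25 with low protein, and 8.86, 8.70, 8.97 and 9.03 in the controls. Low protein arrays lay above the controls, but the difference of 0.23 ± 0.09 did not pass (SE, n = 4 each, limma adjusted p = 0.0626), and its second probe set gave 0.21.

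**Figure D2:**
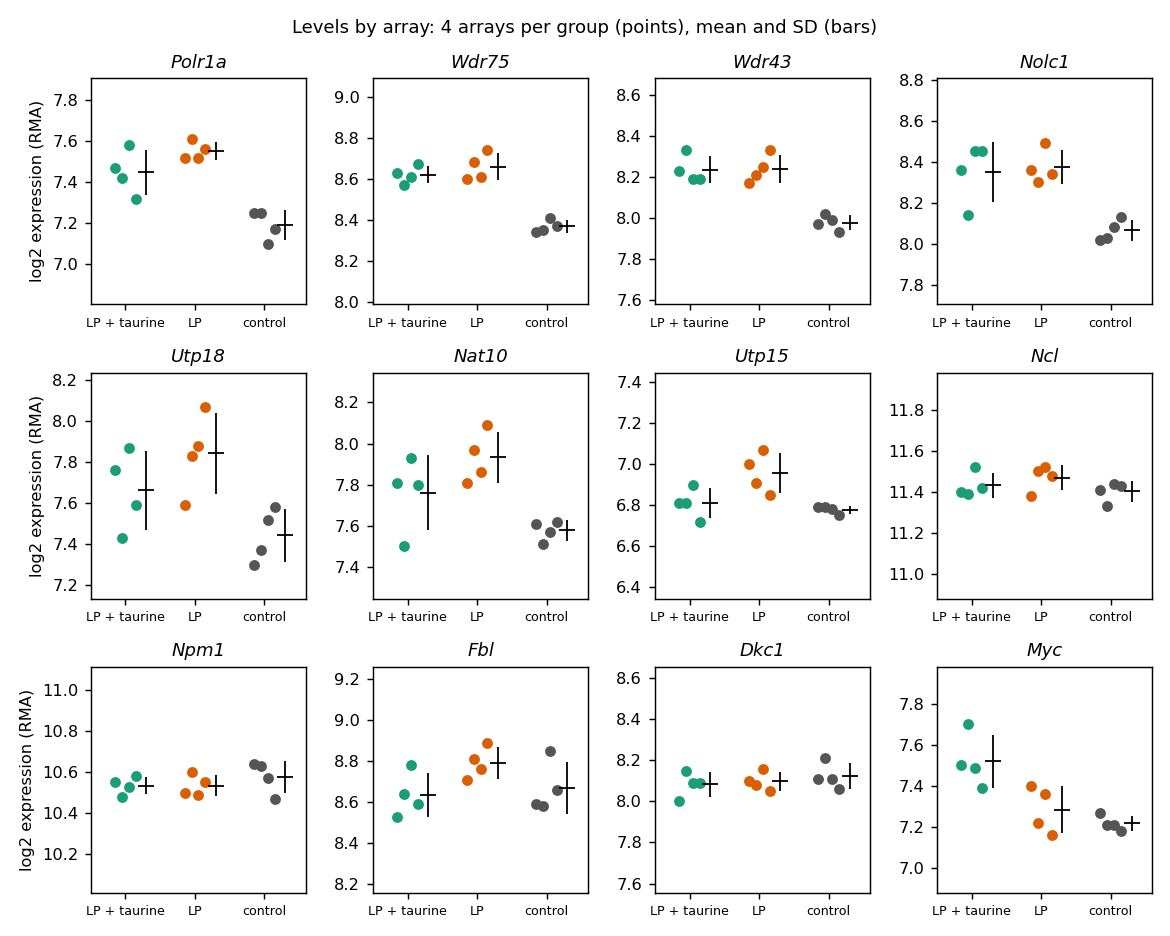
Log2 expression (vertical axes, each panel spanning the same number of log2 units around its own centre) of 11 members and Myc on each array, with low protein (LP) plus taurine in green, LP in orange and control in grey. Points are arrays, and crosses with bars give the group mean and SD (n = 4). Polr1a, Wdr75, Wdr43 and Nolc1 have both low protein groups above the controls, whereas Ncl, Npm1, Fbl and Dkc1 overlap across groups.

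Low protein plus taurine was next set against control, with the same 4 control arrays. Of the 42 members 6 rose (14.3%) and 0 fell, and 12 had an unadjusted p under 0.05. Over all detected probe sets 10.2% were called higher and 3.6% lower, and among the genes at like levels 18.4% were called higher and 0.394% lower. The members' median difference was 0.10, against 0.14 for the genes at like levels and 0.06 for all probe sets. The called members were Polr1a, Nolc1, Nop58, Wdr43, Wdr75 and Imp3, which rose by 0.22 to 0.29 and whose values stand beside those with low protein above. Taurine arrays lay wholly above control arrays for 11 of the 42 members (26.2%), these 6 included, against 14.2% of all probe sets and 24.1% of genes at like levels. No large subunit factor and no abundant nucleolar protein was called. Without taurine 1 or without control 3 only 2 members were called, and without taurine 2 there were 9, while the share of genes at like levels was 4.31%, 5.26% and 19.4% in these settings.

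Taurine against low protein alone asked whether the supplement shifted these transcripts under the same diet. Of the 42 members, 0 were called in either direction by limma, as were 0 of all 18957 probe sets (0.0%), of which 2047 had an unadjusted p under 0.05. Each alternative run, the test of the study's methods included, also called 0 members. An unadjusted p under 0.05 was found for 3 members, Utp15, Noc4l and Ddx21, all lower with taurine. Differences ran from -0.20 to 0.05 with a median of -0.07, and 35 of 42 were below 0. The genes at like levels had a median of -0.03, and 63.2% of them lay below 0. Over all members the 95% intervals reached from -0.42 to 0.17, while the rises above control went up to 0.40.

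Ddx21 had the largest such difference, -0.20 (95% interval -0.40 to -0.01, limma adjusted p = 0.451), although taurine 3 at 9.08 lay above low protein 1 and 3. For Noc4l it was -0.19 (95% interval -0.36 to -0.02, limma adjusted p = 0.435) and for Utp15 -0.15 (95% interval -0.27 to -0.02, limma adjusted p = 0.42). Rrp9 and Ftsj3, a methyltransferase-like protein of large subunit processing, were the members whose taurine arrays all lay below the low protein arrays (2 of 42, 4.76%), where 3.51% of all probe sets and 4.93% of genes at like levels did so. Their differences were -0.16 and -0.12 (limma adjusted p of 0.472 and 0.49). Wdr43 (-0.00, 95% interval -0.12 to 0.11), Nolc1 (-0.02, -0.18 to 0.13) and Wdr75 (-0.04, -0.14 to 0.07) had intervals on both sides of 0, and so had Polr1a (-0.10, -0.24 to 0.03).

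Values by array differed within the groups. The median deviation of the 42 members from the control mean was 0.10, 0.00, 0.18 and 0.12 on the taurine arrays and 0.11, 0.23, 0.17 and 0.22 on the low protein arrays. The 4 control arrays lay between -0.01 and 0.01. For genes at like levels the same deviation was 0.16, 0.09, 0.15 and 0.14 with taurine and 0.15, 0.20, 0.18 and 0.15 with low protein. Low protein 1 and low protein 4 were thus apart for the members and close for the genes at like levels, and taurine 1 was the highest taurine array for the genes at like levels but not for the members. Taurine 2 had the lowest value of the 8 in both, with 22 of 42 members above the control mean, against 32 to 40 on the other taurine arrays. The mean of 20 cell cycle markers was 8.43, 8.16, 8.66 and 8.49 on the taurine arrays, 8.41, 8.63, 8.52 and 8.65 on the low protein arrays and 8.42, 8.40, 8.48 and 8.55 on the control arrays. Taurine 2 and low protein 1 were lowest and taurine 3 highest in their groups for these markers, as they were for the members. The part of cell cycle genes in the members' values was not tested.

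**Figure D3:**
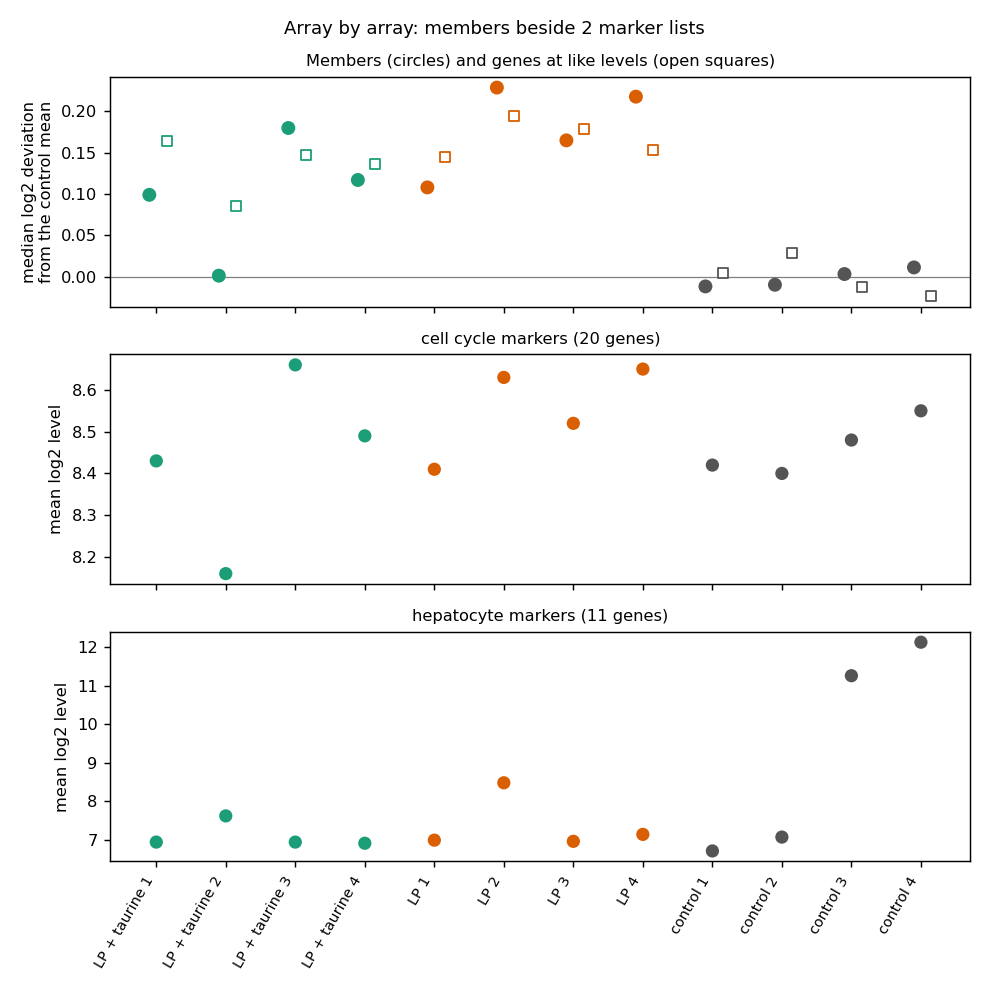
Upper panel: median log2 deviation from the control mean on each of the 12 arrays for the 42 members (circles) and for genes at like levels (open squares). Middle and lower panels: mean log2 level of 20 cell cycle and 11 hepatocyte markers on the same arrays; low protein (LP) plus taurine is green, LP orange and control grey. Taurine 2 is lowest among the 8 low protein arrays in the upper panel and lowest of all in the middle panel, and control 3 and control 4 stand apart in the lower one.

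How many members were called depended on how the arrays were scaled to each other. With low protein, 7 members were called higher after centring each array on its median, 5 after a further quantile normalisation and 3 after cyclic loess, against 15.1%, 7.63% and 3.46% of genes at like levels. The members' median was then 0.10, 0.09 and 0.06. After cyclic loess Polr1a, Utp15 and Rrp9 were called higher, and Dkc1 (-0.17, limma adjusted p = 0.0475), Gnl3 (-0.21, limma adjusted p = 0.0196) and Npm1 (-0.14, limma adjusted p = 0.0454) were called lower. The quantile step also called Gnl3 lower (-0.17, limma adjusted p = 0.034). Without control 3 and control 4, 15 members were called higher (35.7%), against 20.8% of genes at like levels, with Nop58, Utp15, Nop14, Rrp9 and Bysl no longer called and Ddx21 added at 0.34 (limma adjusted p = 0.0395). Polr1a was called under each of these settings, and it was the 1 member called after cyclic loess without control 3 and control 4.

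With taurine, centring left 2 members called (4.76%), Wdr43 and Wdr75, and the quantile step left 1 (2.38%), Polr1a, against 5.91% and 2.93% of genes at like levels. After cyclic loess 0 members were called higher, against 1.38% of genes at like levels, and Gnl3 was called lower (-0.19, limma adjusted p = 0.0461). Without control 3 and control 4 only Wdr75 was called (0.28, limma adjusted p = 0.0322), where 3.69% of genes at like levels were.

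**Figure D4:**
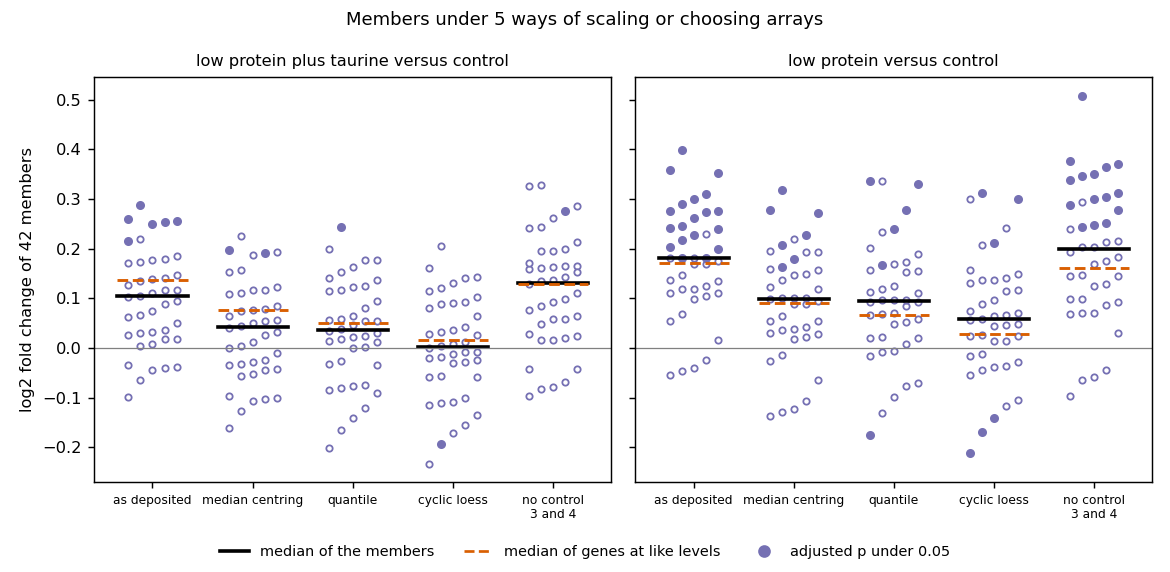
Log2 fold changes against control (vertical axis) of the 42 members for low protein plus taurine (left) and low protein (right), under 5 ways of scaling or choosing arrays (horizontal axis). Filled points have an adjusted p under 0.05, the solid line is the members' median and the dashed line the median of genes at like levels. The 2 lines stay close to each other in each setting and move toward 0 from the deposited values to cyclic loess.

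Further genes of the pathway were measured in 5 lists of 98 genes. With low protein 46 of the 98 rose (46.9%) and 1 fell, with a median of 0.18, and with taurine 16 rose (16.3%) and 0 fell, with a median of 0.11. These shares stand beside 21.8% and 10.2% of all probe sets and 40.1% and 18.4% of genes between the quartiles of the members' levels. Nothing particular to the lists is read from them. Taurine against low protein called 0 of them. Other small subunit factors held the most calls of the 5 lists, with 19 of 29 higher with low protein. Among them were Utp4 (0.32, limma adjusted p = 0.00507) and the helicase Dhx33 (0.35, limma adjusted p = 0.00622). That difference between lists was not tested. Of 12 other RNA polymerase I and ribosomal gene factors 4 rose, including the polymerase subunit Polr1e (0.34, limma adjusted p = 0.00524) and Mybbp1a (0.32, limma adjusted p = 0.00493), a Myb-binding protein of the nucleolus. Polr1e was called with taurine as well (0.29, limma adjusted p = 0.0173).

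Other large subunit factors rose in 16 of 38 cases with low protein, among them the GTPases Efl1 (0.27, limma adjusted p = 0.00762) and Gtpbp4 (0.22, limma adjusted p = 0.00808). The 1 gene that fell was Nop16 (-0.24, limma adjusted p = 0.0174), at 7.81 to 7.91 with low protein and 7.94 to 8.18 in the controls, named here after its value was seen. The RNA exosome, which trims the precursors, had 3 of 10 subunits called with low protein, including Exosc7 (0.32, limma adjusted p = 0.00694). Of 9 snoRNP assembly factors 4 rose with low protein, including Naf1 (0.34, limma adjusted p = 0.00992) and Znhit6 (0.26, limma adjusted p = 0.00924). With taurine 3 rose, including Ruvbl2 (0.29, limma adjusted p = 0.017).

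Of the ribosomal proteins, which are parts of the finished particle, 12 of 68 measured genes rose with low protein (17.6%) and 0 fell, with a median of 0.08, and 2 rose with taurine (2.94%), with a median of 0.04. They are measured at high levels, 64 of the 68 at 9.85 or above, where 18.7% of 1896 probe sets were called higher with low protein and 9.97% with taurine. Rpl35 was called in both comparisons (0.25 with low protein, limma adjusted p = 0.00721, and 0.22 with taurine, limma adjusted p = 0.0236). Their difference from the members was not tested.

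Myc, the transcription factor named above, had 7.50, 7.70, 7.49 and 7.39 with taurine, 7.40, 7.22, 7.36 and 7.16 with low protein, and 7.27, 7.21, 7.21 and 7.18 in the controls. All taurine arrays lay above all controls, while low protein arrays overlapped with both groups. It rose by 0.30 ± 0.07 with taurine over control (SE, n = 4 each, limma adjusted p = 0.0225) and differed by 0.07 with low protein (limma adjusted p = 0.485). The taurine call was lost after median centring (0.24, limma adjusted p = 0.0583), after cyclic loess (0.26, limma adjusted p = 0.0541), without control 3 and control 4 (0.28, limma adjusted p = 0.0979), without taurine 1 (limma adjusted p = 0.0551) and without control 3 (limma adjusted p = 0.0564). Between taurine and low protein Myc differed by 0.24 (limma adjusted p = 0.363). Among 9 measured genes of the Myc network, 1 rose and 1 fell with low protein, with a median of -0.02. These were Mlx (0.23, limma adjusted p = 0.0216) and Mnt (-0.17, limma adjusted p = 0.0423). Over all probe sets 21.8% were called higher and 11.9% lower, and nothing particular to this list is read from its calls.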

How the data were processed

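RNA pools of hind leg muscle were hybridised to Affymetrix arrays. The deposited values are log2 expression per probe set, made with RMA in R 3.2.2 per the submitters' processing notes. The sources used here name no genome build. Detection filtering by the authors left 18957 of 29214 probe sets, per the deposited tables. A further deposited table of the authors covers 895 selected probe sets with p-values, linear intensity means and their ratios, per the file headers, and only its ratios and rescue marks are quoted.

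For each probe set, limma 3.58.1 under R 4.3.3 fitted 3 group means to the 12 arrays together, with two-sided moderated tests, Benjamini-Hochberg adjustment over all 18957 probe sets and a threshold of 0.05. Fold changes are differences of mean log2 values. Symbols came from the platform annotation. Replicates are different dams. In simulated data for low protein against control with 18957 probe sets, 82% of changes of 0.5 and 98% of changes of 1 (log2) were recovered. Of 187 calls in these data, 7 were false. The members called with low protein rose by less, 0.18 to 0.40, and no offset between arrays was simulated. The simulation therefore does not give the power or the error for changes of the members' size.

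Named genes were 10 fixed genes (9 with a probe set of their own), up to 8 called rises and 8 called falls per comparison without overlap of arrays, the member with the smallest p per role and comparison, 4 with the smallest p where fewer passed, and up to 2 called genes per further list and comparison. Values of other genes are given briefly. The members, lists and tests were chosen with earlier results of these data known. Alternatives were fits with the replicate number as a block or with only the groups compared, trend and robust options, quantile normalisation, median centring, cyclic loess, no control 3 and 4, array weights, level and symbol filters, the table of all probe sets, mean probe sets, other thresholds, the methods' t-test and leaving out each array. Cyclic loess without control 3 and 4 was added after seeing the data. Promoters came from RefSeq (GRCr8).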

Additional observations from a re-analysis of the deposited data

Results flagged for a closer look

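Imp3 on the low protein arrays stood out for 1 array: low protein 4 was at 9.19, against 9.22 to 9.23 on the other 3, a gap of 0.864 of the group's range which is above Dixon's 95% limit for 4 samples. The range itself was narrow, with an SD of 0.018. It was the only such array among 72 groups looked at (24 named genes in 3 groups), and chance alone marks about 1 in 20 groups.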

How the results depend on the processing

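With low protein, the count of members called higher (19) was 5 after quantile normalisation, 7 after median centring, 3 after cyclic loess, 1 after cyclic loess without control 3 and 4, 12 of 29 tested above the median level, 3 at an adjusted p of 0.01 and 0 with the methods' t-test after Bonferroni adjustment (14 after Benjamini-Hochberg). In the same order, 7.63%, 15.1%, 3.46%, 2.56%, 43.7%, 11%, 0.0844% and 28.4% of genes at like levels were called higher. Leaving out 1 array gave 10 (without low protein 3) to 22 (without low protein 1), against 25.2% and 35.1% of genes at like levels. The count called lower (0) was 1 after quantile normalisation and 3 after cyclic loess, against 1.94% and 2.76% of genes at like levels. The median (0.181) was 0.094 after quantile normalisation, 0.1 after centring, 0.058 after cyclic loess, 0.104 after cyclic loess without control 3 and 4, and 0.145 to 0.227 with 1 array left out.

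With taurine against control, the count called higher (6) was 2 with only the groups compared, 1 after quantile normalisation, 2 after centring, 0 after cyclic loess with or without control 3 and 4, 1 without control 3 and 4, 10 with array weights, 0 and 11 at adjusted p of 0.01 and 0.1, and 2 and 0 with the methods' t-test after Benjamini-Hochberg and Bonferroni adjustment. Called higher among genes at like levels were 8.81%, 2.93%, 5.91%, 1.38% and 0.366% (cyclic loess with and without these controls), 3.69%, 27.7%, 0.816%, 33.4%, 3.63% and 0.0281%, in the order given. Leaving out 1 array gave 2 (without taurine 1 or control 3) to 9 (without taurine 2), against 4.31%, 5.26% and 19.4% of genes at like levels. The count called lower (0) was 1 after cyclic loess, against 1.52% of genes at like levels. The median (0.104) was 0.002 after cyclic loess and 0.068 to 0.13 with 1 array left out. For taurine against low protein 0 members were called under every alternative, and the median was -0.108 to -0.041 with 1 array left out. Why these values moved was not tested, except that fewer members are tested above the median level.

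Deviations of same-number arrays correlated by -0.205 to 0.2, above 0.1 in 3 of 12 pairs. No pairing by number is stated or evident from these values, which cannot exclude it. With the replicate number as a block, 19 members were called higher with low protein, 4 with taurine and 0 between these groups. Of genes at like levels, 35% were then called higher with low protein and 13.8% with taurine. With low protein the block ended the call of Nop14 (adjusted p = 0.0659) and added Ddx21 (0.0356), and with taurine it ended those of Nop58 (0.0775) and Imp3 (0.0538). The taurine call of Myc was also lost with the methods' t-test after Benjamini-Hochberg adjustment (0.0689) and after cyclic loess without control 3 and 4 (0.187). Of the named genes, 10, 17 and 34 values changed sign in another setting in the 3 comparisons (low protein against control, taurine against control, taurine against low protein) with neither value past the threshold.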
